A study of Mus musculus with 48 samples.

Results

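The response of the liver to a 24 h fast was examined in p110α hep+/+ mice on a high-fat diet (HFD). These are male mice that carry floxed alleles of p110α, the catalytic subunit of PI3K encoded by Pik3ca, and that lack the albumin-Cre transgene, so both alleles are intact in hepatocytes. They are littermates of the p110α hep-/- mice, in which albumin-Cre+/- deletes p110α in hepatocytes. All mice of the study share the floxed alleles. From 12 weeks of age they received HFD with 60% of calories from fat, or a control (CTRL) diet, for 12 weeks. They were then killed at ZT16 (16 h after lights on, in the dark phase), either fed ad libitum or after the fast, which began at ZT16 of the previous day. The comparison takes the 6 arrays whose titles give this genotype as fasted on HFD and the 6 that give it as fed on HFD, which is 12 of the 48 one-colour Agilent arrays of the series, with 1 mouse per array. For reference, 6 fed and 6 fasted mice of the same genotype given CTRL diet, and as many p110α hep-/- mice given HFD, served to ask where the response differed. Levels are normalized log2 signals of a probe, a difference is the log2 fold change of fasted minus fed mice, and errors of differences are standard errors (SE) from limma with n = 6 mice per group.

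A fed liver turns glucose into fatty acids and cholesterol under the control of insulin and of the transcription factors SREBP-1c, SREBP-2 and ChREBP. During a fast, insulin falls while glucagon and glucocorticoids rise. Glycogen is then used up, glucose is made from lactate, glycerol and amino acids, and fatty acids released by adipose tissue activate PPARα, which drives their oxidation and the formation of ketone bodies. A diet rich in fat supplies the liver with fatty acids in both states.

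The 12 arrays had 52% to 57.4% of probes well above background. Signals of replicates correlated at 0.9926 to 0.9976 in fed and at 0.9927 to 0.9969 in fasted mice (Pearson, across probes of an array pair), and no pair held identical values. Each of the 6 slides held 1 array of every group, and each of the 2 washing batches held 3 arrays of every group. All 10 measured hepatocyte markers, such as Alb and Ttr, were well above background on all 12 arrays. Whether fewer cells of a type or less RNA per cell lies behind a lower signal cannot be told apart in whole liver RNA. The Pik3ca probe, which does not report on the deletion, had a level of 12.58 to 12.99 in fed and of 12.95 to 13.45 in fasted mice, a difference of 0.52 ± 0.08 that stayed under the fold threshold (adjusted p = 6.3e-07).

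Among 20486 genes, 460 rose and 506 fell on fasting in p110α hep+/+ mice on HFD, at a Benjamini-Hochberg adjusted p of at most 0.05 (limma) and a fold change over 1.5. These are 2.25% and 2.47% of the genes tested. The median difference over all genes was 0. Without the fold threshold 2824 genes passed upwards and 3012 downwards, and 252 of the called genes exceeded a fold change of 2. Groups of arrays that do not overlap are a further description: all 6 fasted arrays lay above all 6 fed arrays for 1063 genes (5.19%) and below them for 1160 genes (5.66%). Of the genes called, 308 that rose and 334 that fell were of this kind. Within the first washing batch, with 3 mice per group, 403 rose and 430 fell. Within the second, 442 rose and 512 fell.

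**Figure D1:**
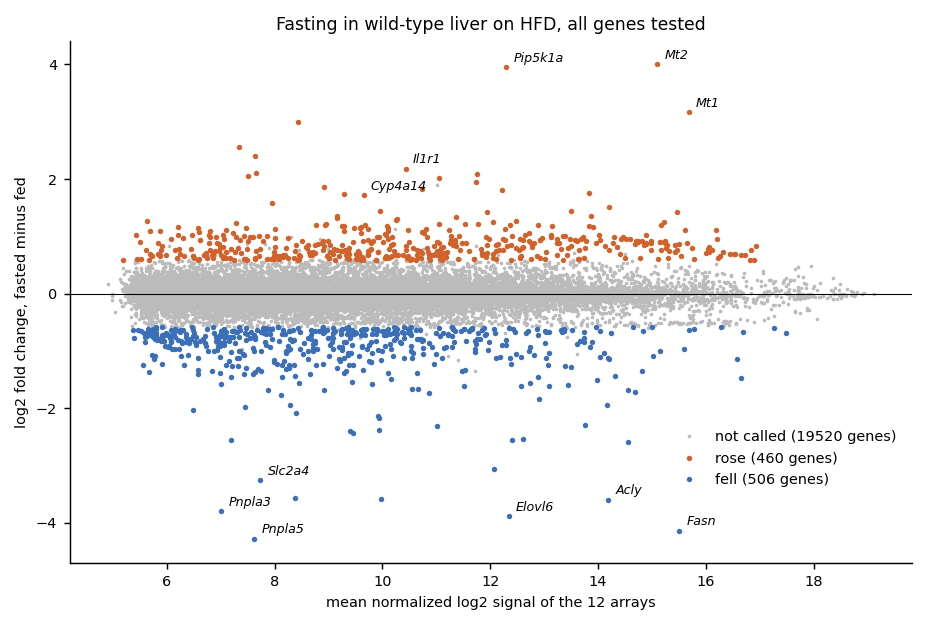
Log2 fold change of fasted minus fed p110α hep+/+ mice on HFD (vertical axis) against the mean normalized log2 signal of the 12 arrays (horizontal axis), 1 point per gene, read from its brightest probe. Called genes are coloured (460 rose, 506 fell). The metallothioneins Mt1 and Mt2 and the read probe of Pip5k1a stand highest, and Fasn, Acly, Elovl6, Pnpla3 and Pnpla5 stand lowest.

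Most of the lipogenic program fell. Of 27 genes of lipogenesis, 22 fell and 0 rose, with a median difference of -1.47 against 0 over all genes, and in 22 genes all fasted arrays lay below all fed arrays. The probes read here lie, on mm9, at chr11:120668460-120668519 (Fasn), chr11:100337674-100337733 (Acly), chr3:129337756-129337815 (Elovl6), chr11:60013214-60013273 (Srebf1) and chr11:69756073-69756132 (Slc2a4). Fasn, fatty acid synthase, had signals of 17.05, 17.62 and 17.94 (lowest, median and highest) in fed mice and of 12.78, 13.34 and 14.26 in fasted mice. Its difference of -4.14 ± 0.18 is a 17.6-fold fall (adjusted p = 1.48e-21). Every fasted mouse lay far below every fed mouse, and the call held under all 27 alternative settings.

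The enzymes before and after fatty acid synthase fell with it. Acly, ATP citrate lyase, which supplies cytosolic acetyl-CoA, went from 15.70, 15.93 and 16.37 in fed mice to 12.10, 12.32 and 12.81 in fasted mice, a difference of -3.60 ± 0.15 (adjusted p = 2.22e-22). A second probe of Acly read -2.5. Acaca, acetyl-CoA carboxylase, went from 13.53, 13.90 and 14.11 to 10.98, 11.22 and 11.96, a difference of -2.53 ± 0.12 (adjusted p = 1.48e-20). All 6 of its probes fell, with differences from -2.53 to -1.21. In both genes the groups did not overlap. Elovl6, which lengthens palmitate to stearate, fell from 14.00, 14.31 and 14.59 to 9.92, 10.26 and 11.06, a difference of -3.89 ± 0.18 (adjusted p = 3.94e-21). Scd1, the desaturase that makes oleate, moved much less, from 16.23, 17.13 and 17.37 to 15.77, 16.33 and 17.03. Its difference was -0.67 ± 0.23 (adjusted p = 0.0255), the arrays overlapped, and the call held under 17 of 27 alternatives. Me1, malic enzyme, which supplies NADPH, fell by 1.45 ± 0.22 on the log2 scale (adjusted p = 2.09e-06). Gpam, which starts glycerolipid synthesis, fell by 1.51 ± 0.14 on the log2 scale (adjusted p = 5.26e-11).

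Regulators of lipogenesis fell as well. Srebf1, which encodes SREBP-1, had signals of 15.08, 15.70 and 15.82 in fed and of 13.22, 13.91 and 14.42 in fasted mice, a difference of -1.71 ± 0.20 (adjusted p = 4.97e-09). Mlxipl, which encodes ChREBP, did not pass the test on its read probe, with a difference of -0.23 ± 0.09 (adjusted p = 0.058). Its other probes read 0.22 (adjusted p = 0.0058), under the fold threshold, and -0.22 (adjusted p = 0.213). Mid1ip1 and Thrsp, related proteins that promote fatty acid synthesis, fell by 3.07 ± 0.22 (adjusted p = 1.02e-14) and by 1.47 ± 0.30 (adjusted p = 0.000201) on the log2 scale. The 6 fasted arrays of Thrsp lay at 15.22 to 16.31 and the fed arrays at 17.21 to 17.64. The call of Thrsp was lost within the second washing batch.

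Pnpla3 and Pnpla5, lipases of the patatin family, showed some of the deepest falls, with the fasted signal near background. Pnpla3 was well above background on all 6 fed arrays (7.14, 8.99 and 10.04) and on 1 of 6 fasted arrays (4.89, 5.27 and 5.34), a difference of -3.80 ± 0.30 (adjusted p = 2.41e-13). Pnpla5 was well above background on all 6 fed arrays (8.53, 9.97 and 10.36) and on 2 fasted arrays (5.08, 5.49 and 6.07), a difference of -4.28 ± 0.31 (adjusted p = 1.02e-14). For both genes the lower end is set by the background, so the size of the fall is not exact. Over the alternatives the difference ran from -6.12 to -2.67 for Pnpla3 and from -6.17 to -3.11 for Pnpla5. Second probes of the genes read -1.51 and -1.91. Slc2a4, the insulin-dependent glucose transporter GLUT4, fell from 8.64, 9.38 and 9.78 to 6.03, 6.16 and 6.18, a difference of -3.26 ± 0.20 (adjusted p = 5.04e-17).

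The promoters of Fasn and Thrsp are shown because both genes fell and both hold the CCAAT box, a motif of promoters that SREBP acts on together with the factor NF-Y. They run 5′ to 3′ on the strand of the gene, from 250 bases before to 50 bases after the start of transcription given by RefSeq (GRCm38.p6), with each match to CCAAT on either strand in capitals. Fasn is at chr11:120824498-120824797 and Thrsp at chr7:97417501-97417800, both on the minus strand.

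Fasn: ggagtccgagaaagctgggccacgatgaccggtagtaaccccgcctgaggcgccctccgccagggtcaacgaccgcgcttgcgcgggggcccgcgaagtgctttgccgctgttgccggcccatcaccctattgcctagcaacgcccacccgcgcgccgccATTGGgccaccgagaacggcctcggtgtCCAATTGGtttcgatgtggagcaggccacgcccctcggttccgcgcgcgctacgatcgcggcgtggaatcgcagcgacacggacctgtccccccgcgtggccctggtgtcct

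Thrsp: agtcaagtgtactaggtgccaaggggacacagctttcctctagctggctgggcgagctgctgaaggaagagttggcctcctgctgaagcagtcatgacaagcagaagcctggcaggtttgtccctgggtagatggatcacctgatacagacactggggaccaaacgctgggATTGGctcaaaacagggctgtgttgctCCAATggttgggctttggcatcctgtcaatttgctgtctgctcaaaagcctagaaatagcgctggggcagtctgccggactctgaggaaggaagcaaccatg

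The Fasn promoter has 3 matches, which begin at -90, -62 and -59 relative to the start, and those at -62 and -59 are on opposite strands and share bases. The Thrsp promoter has 2 matches, at -79 and -52. Of all 32851 promoters of the same length in this table, 12289 (37.4%) hold the motif. Of the 26 promoters found for 20 of the 22 lipogenic genes that fell, 15 do (57.7%), and of the 12 promoters found for 9 of the 14 cholesterol genes that fell, 9 do (75%). The sterol regulatory element TCACNCCAC is in 408 of all promoters (1.24%), in 0 of the 26 and in 1 of the 12. The E-box CACGTG is in 2349 (7.15%), in 3 of the 26 and in 2 of the 12. Letters that match are a description and not evidence of binding.

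Cholesterol synthesis and uptake followed the same direction. Of 25 measured genes, 14 fell and 0 rose, with a median difference of -0.86, and in 10 of them all fasted arrays lay below all fed arrays. Fdps, which makes farnesyl diphosphate, fell from 13.85, 14.28 and 14.49 to 12.18, 12.27 and 13.79, a difference of -1.59 ± 0.22 (adjusted p = 2.83e-07). Its fasted mice were uneven, with 1 just under the fed range. Sqle, squalene epoxidase, was more uneven, at 8.57, 10.40 and 10.76 in fed and 7.51, 8.59 and 10.27 in fasted mice. The arrays of Sqle overlapped, its difference was -1.24 ± 0.40 (adjusted p = 0.016), and the call held under 20 of 27 alternatives.

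Further genes of this list fell. Mvd, mevalonate decarboxylase, fell by 1.43 ± 0.24 (adjusted p = 8.98e-06) on the log2 scale. Insig1, which retains SREBP in the endoplasmic reticulum, fell by 1.0 ± 0.15 on the log2 scale (adjusted p = 1.33e-06), with no overlap. Hmgcs1 fell by 0.94 ± 0.16 (adjusted p = 2.02e-05) and Idi1 by 0.61 ± 0.23 (adjusted p = 0.0415), the latter under 11 of 27 alternatives. The median difference of this list ranged from -0.97 to -0.64 over the alternatives.

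**Figure D2:**
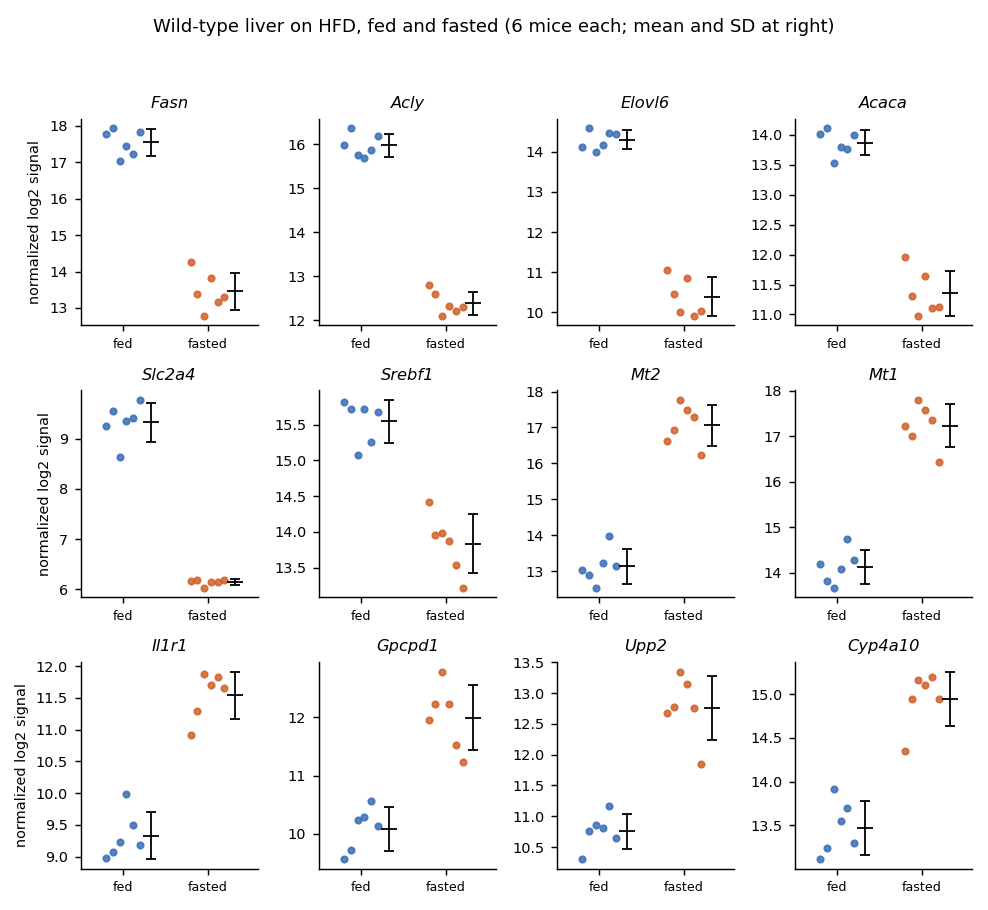
Normalized log2 signal (vertical axis) of 12 genes in 6 fed and 6 fasted p110α hep+/+ mice on HFD, 1 point per mouse, with the mean and SD of each group as a bar at its right. The fasted mice lie below all fed mice for Fasn, Acly, Elovl6, Acaca, Slc2a4 and Srebf1, and above all fed mice for Mt2, Mt1, Il1r1, Gpcpd1, Upp2 and Cyp4a10.

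Genes of fatty acid oxidation had no calls. Of 20 genes of the mitochondrial pathway, 0 rose and 0 fell beyond the threshold. At the adjusted p alone 6 were higher and 0 lower, and the median difference was 0.15. Cpt1a, the carnitine palmitoyltransferase that admits fatty acids to mitochondria, had signals of 14.92, 14.97 and 15.14 in fed and 14.96, 15.15 and 15.42 in fasted mice, a difference of 0.21 ± 0.09 (adjusted p = 0.0702). In 9 genes of ketone body metabolism, the monocarboxylate transporters Slc16a6 and Slc16a1 fell and none rose. Slc16a6 fell by 0.92 ± 0.17 on the log2 scale (adjusted p = 4.04e-05) and Slc16a1 by 0.60 ± 0.12 (adjusted p = 2e-04), the latter under 20 of 27 alternatives.

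The omega oxidation genes were the exception. Of 18 genes of peroxisomal and omega oxidation 4 rose, all of the Cyp4a family of fatty acid omega hydroxylases, and 0 fell, with a median of 0.11. Cyp4a10 had signals of 13.11, 13.42 and 13.92 in fed and of 14.35, 15.02 and 15.19 in fasted mice, a difference of 1.52 ± 0.23 (adjusted p = 1.59e-06). Cyp4a14 rose from 8.16, 8.93 and 9.21 to 8.84, 10.66 and 11.29, a difference of 1.72 ± 0.39 (adjusted p = 0.000723), with 1 fasted mouse inside the fed range. Cyp4a31 rose by 1.42 ± 0.23 (adjusted p = 5.03e-06) and Cyp4a12a by 1.34 ± 0.33 (adjusted p = 0.00194). Within the second washing batch Cyp4a12a read 0.47 and was not called. Cyp4a12a is a male-biased gene, and probes of this family may share sequence. One fasted mouse, replicate 1, was the lowest for Cyp4a10, Cyp4a31 and Acot1.

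Of 24 regulators and targets of PPARα, 3 rose and 0 fell, with a median of 0.24. Acot1, an acyl-CoA thioesterase, rose from 13.05, 13.17 and 13.42 to 14.09, 14.58 and 14.71, a difference of 1.35 ± 0.20 (adjusted p = 9.19e-07). Angptl4, an inhibitor of lipoprotein lipase, rose from 14.73, 15.32 and 15.44 to 15.73, 15.81 and 16.19, a difference of 0.66 ± 0.15 (adjusted p = 0.000823), and its call was lost without replicate 3 of the fasted mice. Slc22a5, the carnitine transporter, had a difference of 0.59 ± 0.12 (adjusted p = 0.000117) and was called under 14 of 27 alternatives. Ppara itself had a difference of 0.31 ± 0.07 that lay under the fold threshold (adjusted p = 0.000408). Several genes known as PPARα targets did not pass: Pdk4, which restrains pyruvate oxidation, at -0.17 ± 0.37 (adjusted p = 0.787), Ehhadh at 0.27 ± 0.17 (adjusted p = 0.246), Vnn1 at 0.37 ± 0.21 (adjusted p = 0.196) and Plin2, a lipid droplet coat protein, at -0.51 ± 0.17, under the fold threshold (adjusted p = 0.0224).

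Among lipid droplet, lipase and lipoprotein genes, 4 of 34 rose and 0 fell, with a median of -0.01. Pnpla2, which encodes the triglyceride lipase ATGL, rose from 11.56, 11.80 and 12.15 to 12.50, 12.80 and 12.95, a difference of 0.94 ± 0.11 (adjusted p = 2.25e-08). Lipe, hormone-sensitive lipase, rose by 0.66 ± 0.11 (adjusted p = 4.54e-06) on its read probe, while its probes together ranged from 0.19 to 0.66. The call was lost without replicate 5 of the fasted mice and with the median over probes. Plin4 rose by 0.80 ± 0.26 (adjusted p = 0.0197; 20 of 27 alternatives). Cidea, which promotes the growth of lipid droplets, varied widely, from 12.02 to 15.02 in fed and from 13.54 to 15.22 in fasted mice, and its difference of 1.18 ± 0.46 (adjusted p = 0.0493) was called under 9 of 27 alternatives. Cidec, a relative of Cidea, did not pass (0.01 ± 0.40, adjusted p = 0.987), and neither did Apoa4, an apolipoprotein (-0.24 ± 0.42, adjusted p = 0.726). G0s2, an inhibitor of ATGL, was at -0.43 ± 0.36, adjusted p = 0.427 and Plin5 at 0.01 ± 0.15, adjusted p = 0.958.

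Genes of glucose production moved in both directions. Of 22 genes of gluconeogenesis 3 rose and 4 fell, with a median of -0.04 that changed sign among the alternatives (-0.13 to 0.09). Pck1, the cytosolic enzyme that makes phosphoenolpyruvate from oxaloacetate, rose from 15.17, 15.75 and 16.26 to 16.40, 16.65 and 16.90, a difference of 0.95 ± 0.20 (adjusted p = 0.000241). G6pc, the catalytic subunit of glucose-6-phosphatase, fell from 15.04, 15.60 and 15.72 to 13.43, 14.11 and 14.75, a difference of -1.35 ± 0.20 (adjusted p = 1.25e-06). Neither gene had arrays that overlapped, and both calls held under all 27 alternatives. Fbp1, fructose-1,6-bisphosphatase, fell from 17.77, 17.84 and 17.92 to 16.92, 17.14 and 17.23, a difference of -0.68 ± 0.05 (adjusted p = 3.86e-14). Dusp1, a phosphatase counted in this list though not an enzyme of the pathway, fell by 0.85 ± 0.27 on the log2 scale (adjusted p = 0.0159). Its call was lost without replicate 4 of the fed mice and within the second washing batch. Tat, tyrosine aminotransferase, had a difference of 0.60 ± 0.23 (adjusted p = 0.0477) and was called under 12 of 27 alternatives. Slc2a2, the glucose transporter GLUT2, stayed under the fold threshold (-0.57 ± 0.12, adjusted p = 0.000272), with fasted arrays (11.23 to 11.61) below fed arrays (11.67 to 12.13). The coactivator gene Ppargc1a had a difference of 0.43 ± 0.14, under the fold threshold (adjusted p = 0.016).

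Of 24 genes of glycolysis, glucose uptake and glycogen, 8 fell and 1 rose (Slc2a1), with a median of -0.31, and in 13 of them all fasted arrays lay below all fed arrays. Pklr, liver pyruvate kinase, fell from 10.41, 10.66 and 10.77 to 8.11, 9.27 and 9.30, a difference of -1.58 ± 0.21 (adjusted p = 1.13e-07). Pygl, liver glycogen phosphorylase, fell by 1.09 ± 0.08 on the log2 scale (adjusted p = 5.77e-15), Gpi1 by 1.01 ± 0.09 (adjusted p = 2.93e-11) and Pdhb, a subunit of pyruvate dehydrogenase, by 1.1 ± 0.06 (adjusted p = 4.1e-19). The pentose phosphate pathway had 3 of 8 genes that fell: Pgd by 1.38 ± 0.10 (adjusted p = 5.44e-14), Rpia by 1.37 ± 0.11 (adjusted p = 6.8e-13) and Tkt by 1.04 ± 0.10 (adjusted p = 2.15e-10) on the log2 scale. Second probes of Tkt and Rpia read 0.13 and -0.51. The other probes of Pdhb read -0.85 and -0.25, and the latter did not pass (adjusted p = 0.179).

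Of 29 genes of insulin signalling and FOXO targets, 3 rose and 0 fell, with a median of 0.14. Irs2, an insulin receptor substrate, rose from 9.08, 9.24 and 10.19 to 9.78, 10.45 and 10.86, a difference of 0.98 ± 0.25 (adjusted p = 0.00249). Foxo1, the transcription factor that insulin restrains, rose from 11.05, 11.41 and 11.91 to 12.03, 12.19 and 12.45, a difference of 0.71 ± 0.13 (adjusted p = 2.46e-05). Insr, the insulin receptor, was at 0.03 ± 0.07, adjusted p = 0.825, and Ppp1r3c, a glycogen-targeting subunit, at 0.60 ± 0.25, adjusted p = 0.0666. Inhbe (-0.52 ± 0.22, adjusted p = 0.071) and Ddit4 (0.14 ± 0.27, adjusted p = 0.767) did not pass, and Trib1 stayed under the fold threshold (0.36 ± 0.12, adjusted p = 0.0197). Trib3, a pseudokinase, rose by 0.70 ± 0.16 (adjusted p = 0.000809). Igfbp1, which encodes a secreted binding protein of insulin-like growth factors and is a classic target of FOXO1, did not pass: it lay at 12.61, 14.20 and 15.07 in fed and at 13.87, 14.28 and 14.98 in fasted mice, a difference of 0.23 ± 0.43 (adjusted p = 0.752). Its fed mice spanned a wider range than its fasted mice. The Igfbp1 probe lies at chr11:7102442-7102501 (mm9).

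The growth hormone and IGF axis held 8 genes that rose and 0 that fell of 24, with a median of 0.30. Socs2, a target and inhibitor of growth hormone signalling, rose from 7.54, 7.98 and 8.38 to 9.20, 9.73 and 10.97, a difference of 1.86 ± 0.37 (adjusted p = 0.000127) on its read probe, while its 3 probes ranged from 0.30 to 1.86. It was not called within the first washing batch. Hsd3b5, a male-biased steroid dehydrogenase, was scattered, at 5.46, 5.93 and 7.25 in fed and at 5.13, 9.23 and 11.15 in fasted mice. Its difference was 2.56 ± 0.69 (adjusted p = 0.0041) and was lost without replicate 2 of the fasted mice and within the second washing batch (0.45). Cyp4a12b, a further male-biased gene, rose by 1.22 ± 0.34 (adjusted p = 0.00548), a call lost within the second washing batch (0.25) and with only the arrays of the contrast, and Onecut1, the factor HNF6, by 1.42 ± 0.47 (adjusted p = 0.0211; 22 of 27 alternatives). Igfbp2 rose by 0.82 ± 0.17 (adjusted p = 0.00032). Igf1 had a difference of 0.35 ± 0.08 under the fold threshold (adjusted p = 0.000556), with fasted arrays (15.73 to 16.01) above fed arrays (15.30 to 15.70). The median of this list ranged from 0.14 to 0.42 over the alternatives. The steroid hydroxylase gene Cyp7b1 rose by 0.94 ± 0.24 (adjusted p = 0.00284). Within the second washing batch Cyp7b1 (0.22) and Igfbp2 (0.49) were not called.

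Of 19 measured hepatokines, proteins that the liver secretes as hormones, 1 rose and 1 fell. Fgl1, a fibrinogen-like protein, rose from 14.41, 14.66 and 14.90 to 15.06, 15.67 and 16.40, a difference of 0.90 ± 0.18 (adjusted p = 0.000108). Inhba, the activin A subunit, fell from 8.70, 9.33 and 9.51 to 7.25, 7.66 and 8.50, a difference of -1.56 ± 0.19 (adjusted p = 2.05e-08). Fgf21, a hepatokine of fasting and of nutrient stress, had signals of 8.43, 8.99 and 9.87 in fed and of 8.28, 8.64 and 9.06 in fasted mice, and its difference of -0.44 ± 0.22 did not pass (adjusted p = 0.145). Gdf15 was at 0.59 ± 0.31 (adjusted p = 0.163) and Enho, which encodes adropin, at 0.22 ± 0.27 (adjusted p = 0.599).

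The metallothioneins had large rises. Mt2, a small metal-binding protein, had signals of 12.54, 13.08 and 13.98 in fed and of 16.24, 17.11 and 17.77 in fasted mice. The difference of 4.0 ± 0.42 is a 16-fold rise (adjusted p = 7.17e-10). Mt1 rose from 13.67, 14.13 and 14.75 to 16.44, 17.29 and 17.80, a difference of 3.17 ± 0.40 (adjusted p = 4.09e-08). In both genes every fasted mouse lay above every fed mouse, and the calls held under all 27 alternatives. The other members of the list of NRF2 and metallothionein genes did not rise: of 17 measured, Nfe2l2 and Me1 fell. Nfe2l2, which encodes NRF2, fell by 0.88 ± 0.08 on the log2 scale on its read probe (adjusted p = 1.45e-11), while a second probe read -0.06.

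The promoters of Mt1 and Mt2 are shown because the genes lie next to each other on chromosome 8 and rose together. They are given as for Fasn, with each match to TGCACNC or TGCGCNC on either strand, the core of the metal response element that the factor MTF1 recognises, in capitals. Mt1 is at chr8:94178839-94179138 and Mt2 at chr8:94172368-94172667 (GRCm38.p6), both on the plus strand.

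Mt1: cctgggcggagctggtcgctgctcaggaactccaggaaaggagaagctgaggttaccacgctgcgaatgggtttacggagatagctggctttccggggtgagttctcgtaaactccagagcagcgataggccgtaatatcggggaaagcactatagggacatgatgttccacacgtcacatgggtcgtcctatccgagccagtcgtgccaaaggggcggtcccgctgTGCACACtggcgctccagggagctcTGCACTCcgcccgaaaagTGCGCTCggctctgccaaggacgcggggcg

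Mt2: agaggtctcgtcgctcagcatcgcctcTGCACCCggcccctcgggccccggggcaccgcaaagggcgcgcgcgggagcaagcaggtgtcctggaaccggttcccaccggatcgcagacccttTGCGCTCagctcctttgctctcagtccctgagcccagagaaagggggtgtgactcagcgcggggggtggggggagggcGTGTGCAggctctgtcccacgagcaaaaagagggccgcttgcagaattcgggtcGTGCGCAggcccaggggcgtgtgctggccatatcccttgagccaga

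Mt1 has 3 matches, at -23, 3 and 21 relative to the start, and Mt2 has 4, at -223, -128, -50 and 5. The probes lie at chr8:96704165-96704224 (Mt1) and chr8:96697371-96697430 (Mt2) on mm9. One or more matches are in 8444 of all 32851 promoters (25.7%). A match to these letters does not show that the factor was bound.

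Other genes with large rises have varied roles. Il1r1, the receptor of interleukin-1, rose from 8.98, 9.21 and 9.99 to 10.91, 11.68 and 11.87, a difference of 2.18 ± 0.20 (adjusted p = 9.57e-12). Upp2, a uridine phosphorylase, rose from 10.30, 10.78 and 11.16 to 11.85, 12.76 and 13.35, a difference of 2.09 ± 0.25 (adjusted p = 1.62e-08), and all 4 of its probes rose. Gpcpd1, a glycerophosphocholine phosphodiesterase, rose from 9.56, 10.18 and 10.57 to 11.23, 12.10 and 12.79, a difference of 2.01 ± 0.20 (adjusted p = 1.32e-10). None of these groups overlapped. Scara5, a ferritin receptor, rose by 2.06 ± 0.28 (adjusted p = 2.31e-07), Eif4ebp3, a repressor of translation initiation, by 1.95 ± 0.19 (adjusted p = 9.68e-11), Clec2h by 2.11 ± 0.35 (adjusted p = 6.76e-06) and Prok1, prokineticin 1, by 1.59 ± 0.27 (adjusted p = 9.56e-06). A second probe of Scara5 read 1.00. Clec2h was not well above background on all 12 arrays, and its difference ran from 1.42 to 2.98 over the alternatives. For Pip5k1a, which makes the lipid PI(4,5)P2, the read probe rose from 9.99, 10.25 and 10.99 to 13.38, 14.28 and 15.03, a difference of 3.95 ± 0.33 (adjusted p = 1.13e-12). Its 3 probes disagree, with differences from -0.01 to 3.95, and the call was lost with the median over probes, so the value belongs to that probe and not to the gene as a whole. Fbxo31 likewise rose by 1.80 ± 0.12 (adjusted p = 2.15e-15) on the read probe and by 0.32 on a second.

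Outside lipid synthesis, genes with large falls have varied roles. Tubb2a, a β-tubulin, fell from 15.29, 15.85 and 16.42 to 12.87, 13.29 and 14.10, a difference of -2.59 ± 0.21 (adjusted p = 3.58e-13). Tubb2a-ps2, a pseudogene that can share sequence with it, fell by 2.44 ± 0.17 on the log2 scale (adjusted p = 6.46e-15) and may not be a separate signal. Atp2b2, a plasma membrane calcium pump, fell by 2.56 ± 0.28 (adjusted p = 1.13e-09), Tbc1d31 by 2.38 ± 0.17 (adjusted p = 4.17e-15) and D9Wsu90e by 2.40 ± 0.21 (adjusted p = 4.55e-12). A second probe of Atp2b2 read -1.34, and the other probes of Tbc1d31 read -1.40 to -1.02. The probe of D9Wsu90e lies 37563 bases from the probe of Elovl5 on chromosome 9 (mm9), and whether it reads a transcript of Elovl5 was not tested, so the values of D9Wsu90e may not belong to a separate gene. Elovl5, an elongase of polyunsaturated fatty acids, was added for this after its value had been seen and fell by 1.69 ± 0.17 (adjusted p = 1.65e-10).

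Some genes were not well above background on any array of 1 group, and only a bound can be given for them, against the lowest signal that counted as above background. Ces4a, a carboxylesterase, was at least 1.89-fold higher in fasted mice (adjusted p = 1.31e-05), Smad9 at least 1.54-fold (adjusted p = 0.00185) and Prtn3 at least 1.51-fold (adjusted p = 0.0127). Ttc25 was at least 2.14-fold lower (adjusted p = 3.86e-14), Hormad2 at least 2.03-fold (adjusted p = 2.03e-09), Chrna4 at least 1.94-fold (adjusted p = 1.38e-05), A4gnt at least 1.89-fold (adjusted p = 3e-18) and Krt20 at least 1.4-fold (adjusted p = 0.00122). Smad9, Prtn3 and Krt20 were measured on 5 of 6 arrays of the brighter group. These are dim genes in liver, and the normexp background correction removed the calls of Smad9, Prtn3 and Krt20. Prtn3 was called under 13 of 26 alternatives, and leaving out any 1 of 6 arrays ended its call.

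Of 26 cell cycle genes and p53 targets 16 fell and 3 rose, with a median of -0.73, and all 16 are genes of the division cycle. Rrm2, a subunit of ribonucleotide reductase, fell from 10.45, 10.96 and 11.53 to 8.10, 8.85 and 9.67, a difference of -2.14 ± 0.19 (adjusted p = 9.13e-12). Mki67, the marker of dividing cells, fell from 8.12, 8.44 and 9.07 to 7.18, 7.36 and 7.68, a difference of -1.19 ± 0.15 (adjusted p = 3.78e-08). The replication helicase subunits Mcm6 and Mcm5 fell by 1.66 ± 0.26 (adjusted p = 3.25e-06) and by 1.45 ± 0.28 (adjusted p = 0.000107), with overlap between the groups and without a call within the first washing batch. Cdc20 fell by 1.41 ± 0.18 (adjusted p = 1.13e-07), and Ccnd1, cyclin D1, by 0.81 ± 0.23 (adjusted p = 0.00624). Ccnd1 was called within neither washing batch. The 3 that rose were the stress genes Gadd45g, Gadd45b and Trp53inp1, with Gadd45b at 1.12 ± 0.26 (adjusted p = 0.000981). Cdkn1a, the cell cycle inhibitor p21, did not pass (0.91 ± 0.37, adjusted p = 0.0582). The median of this list ranged from -0.87 to -0.60.

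Of 27 acute phase and complement genes, Il1r1 among them, 8 rose and 1 fell, with a median of 0.39, and in 8 all fasted arrays lay above all fed arrays. Saa4, a constitutive serum amyloid, rose from 13.02, 13.32 and 13.59 to 13.89, 14.59 and 14.82, a difference of 1.17 ± 0.17 (adjusted p = 1.1e-06). Lcn2, lipocalin 2, rose from 11.85, 12.70 and 12.93 to 12.98, 13.58 and 14.63, a difference of 1.02 ± 0.31 (adjusted p = 0.011), and was not called within the first washing batch. Saa1, the inducible amyloid, did not pass (0.44 ± 0.35, adjusted p = 0.387). The hepcidin genes are paralogues whose probes may read each other. Hamp2 fell from 13.05, 13.87 and 14.50 to 6.51, 11.59 and 13.12, a difference of -2.56 ± 0.79 (adjusted p = 0.0125) that was lost without replicate 1 of the fasted mice, which was far below the rest. Hamp spanned 6.45 to 14.29 in fasted mice and did not pass (adjusted p = 0.397). Among 24 interferon-stimulated genes 1 rose (Usp18) and 0 fell, with a median of 0.17 that changed sign among the alternatives (-0.06 to 0.33), and among 24 genes of steatosis, inflammation and fibrosis 0 rose and 1 fell, Ly6d, by 1.61 ± 0.34 on the log2 scale (adjusted p = 0.000278).

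Clock genes were compared at a single time of day, so a shift in phase and a change in level cannot be told apart. Of 21 measured clock and clock output genes 6 rose and 1 fell, with a median of 0.13. Fkbp5, a chaperone induced by glucocorticoids, rose from 11.01, 11.37 and 11.92 to 12.07, 12.71 and 13.36, a difference of 1.25 ± 0.21 (adjusted p = 9.94e-06). Usp2 rose by 1.0 ± 0.15 (adjusted p = 2.18e-06), Ciart by 1.11 ± 0.30 (adjusted p = 0.00401), Dbp by 0.98 ± 0.28 (adjusted p = 0.00699) and Nr1d1, the repressor REV-ERBα, by 0.66 ± 0.18 (adjusted p = 0.00433). Dbp was called within neither washing batch, and the call of Nr1d1 was lost without replicate 1 of the fasted mice. Per1 (0.31 ± 0.20, adjusted p = 0.278) and Arntl, which encodes BMAL1 (-0.22 ± 0.22, adjusted p = 0.506), did not pass, and Per2 was under the fold threshold (-0.46 ± 0.09, adjusted p = 0.000137).

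Calls in the lists of autophagy and protein turnover stand beside 2.25% of all genes that rose and 2.47% that fell. Of 23 genes of autophagy and lysosome 3 rose and 1 fell, with a median of 0.17. At the adjusted p alone 10 were higher and 3 lower. Fam134b, a receptor for autophagy of the endoplasmic reticulum now named Retreg1, rose from 9.98, 10.23 and 10.32 to 10.85, 11.28 and 11.77, a difference of 1.07 ± 0.16 (adjusted p = 1.54e-06). Gabarapl1 and Map1lc3b, which coat the autophagosome, rose by 0.62 ± 0.10 (adjusted p = 8.37e-06) and by 0.60 ± 0.06 (adjusted p = 1.65e-10), close to the fold threshold, and Map1lc3b was called under 21 of 27 alternatives. Ulk1, the kinase that starts autophagy, fell from 13.56, 13.68 and 13.79 to 12.86, 13.05 and 13.10, a difference of -0.67 ± 0.08 (adjusted p = 9.62e-09) that 2 of the scaling alternatives and the median over probes brought under the fold threshold. Of 19 genes of the proteasome and ubiquitin list Fbxo21 rose, by 1.21 ± 0.14 (adjusted p = 6.32e-09), and 0 fell. Of 26 genes of the integrated stress and unfolded protein responses only Trib3 rose, and 0 fell. Asns, asparagine synthetase (0.28 ± 0.32, adjusted p = 0.583), and the chaperone gene Hspa5 (-0.17 ± 0.21, adjusted p = 0.602) did not pass. Cytosolic ribosomal protein and ribosome biogenesis genes had 0 calls of 30 and a median of 0.01. Oxidative phosphorylation had 0 calls of 25, but 12 of its genes were lower at the adjusted p alone and 0 higher, with a median of -0.12 that became 0 with the processed signal.

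Amino acid breakdown, bile acids and xenobiotic metabolism had calls in a minority of their genes, beside 2.25% of all genes that rose and 2.47% that fell. At the adjusted p alone, 11 amino acid genes were higher and 2 lower, and 7 bile acid genes were higher and 3 lower. Of the xenobiotic genes, 14 were higher and 2 lower at that threshold. Of 30 genes of amino acid catabolism and the urea cycle 3 rose and 0 fell, with a median of 0.17, among them Aass, the lysine-degrading enzyme, at 0.86 ± 0.13 (adjusted p = 1.24e-06). Slc7a2, a transporter of cationic amino acids, rose by 0.67 ± 0.12 (adjusted p = 4.45e-05), a call lost without replicate 3 of the fasted mice. Of 24 bile acid genes 3 rose and 2 fell. Cyp8b1, the sterol 12α-hydroxylase, fell from 10.91, 11.11 and 11.68 to 10, 10.42 and 10.64, a difference of -0.81 ± 0.24 (adjusted p = 0.00847) that was called within neither washing batch. Cyp7a1, the rate-limiting enzyme of bile acid synthesis, did not pass (0.45 ± 0.38, adjusted p = 0.408). The organic solute transporter gene Slc51b fell by 0.90 ± 0.22 (adjusted p = 0.00185) on the log2 scale and was called within neither washing batch. Slc51b was not well above background on all 12 arrays. The sterol exporter gene Abcg8 rose by 0.77 ± 0.14 (adjusted p = 2.41e-05). Of 30 measured xenobiotic genes 6 rose and 0 fell, with a median of 0.26. Por, the reductase that serves all microsomal cytochromes P450, rose from 14.91, 15.05 and 15.28 to 15.82, 16.21 and 16.40, a difference of 1.11 ± 0.12 (adjusted p = 1.33e-09). Cyp3a13 rose by 0.79 ± 0.12 (adjusted p = 1.21e-06). Sult1e1, an oestrogen sulfotransferase, rose by 0.99 ± 0.28 (adjusted p = 0.00565), a call lost without replicate 4 of the fasted mice. Alas1, the rate-limiting enzyme of haem synthesis, rose by 0.76 ± 0.23 (adjusted p = 0.00948). Cyp2b13 (-1.09 ± 0.61, adjusted p = 0.195), Cyp2b9 and Cyp2b10 did not pass.

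The calls among zonation and cell type markers stand beside 2.25% of all genes that rose and 2.47% that fell. Pericentral and periportal lists of 16 genes each had 1 gene that rose and 1 that fell, with medians of -0.03 and -0.01. In the pericentral list Slc1a4 rose by 0.62 ± 0.14 (adjusted p = 0.000773), a call lost without replicate 1 of the fed mice, without replicate 3 of the fasted mice and within the first washing batch, and Nkd1, an antagonist of Wnt signalling, fell by 0.67 ± 0.10 (adjusted p = 2.19e-06) on the log2 scale, and in the periportal list Aldh1b1 fell by 0.66 ± 0.14 (adjusted p = 0.000342) on the log2 scale. Markers of hepatocytes, Kupffer cells, sinusoidal endothelium, stellate cells, cholangiocytes, neutrophils and adipocytes had 0 calls. At the adjusted p alone 5 of 10 sinusoidal endothelial markers were lower, and their median was -0.21. The summed signal of 11 Kupffer cell and macrophage markers lay at 30900 to 47800 in fed and at 30000 to 88700 in fasted mice, the highest value being that of 1 fasted mouse, replicate 5. Their median difference was -0.22, with 2 of 11 higher in fasted mice. For 10 lymphocyte markers the summed signal lay at 6290 to 8360 in fed and at 9080 to 13700 in fasted mice. Their median difference was -0.03, with 5 of 10 higher, so the sum does not describe the list as a whole. In that list 1 gene rose, Cd4, by 0.66 ± 0.14 (adjusted p = 0.000512) on its read probe, the brightest of the list, while a second Cd4 probe read 0.09. The erythroid factor Klf1 and the pancreatic elastase Cela2a, at the dim end of the arrays, rose by 0.60 ± 0.12 (adjusted p = 0.000119; 14 of 27 alternatives) and by 0.78 ± 0.20 (adjusted p = 0.00241). The part of these markers in the results above was not tested.

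**Figure D3:**
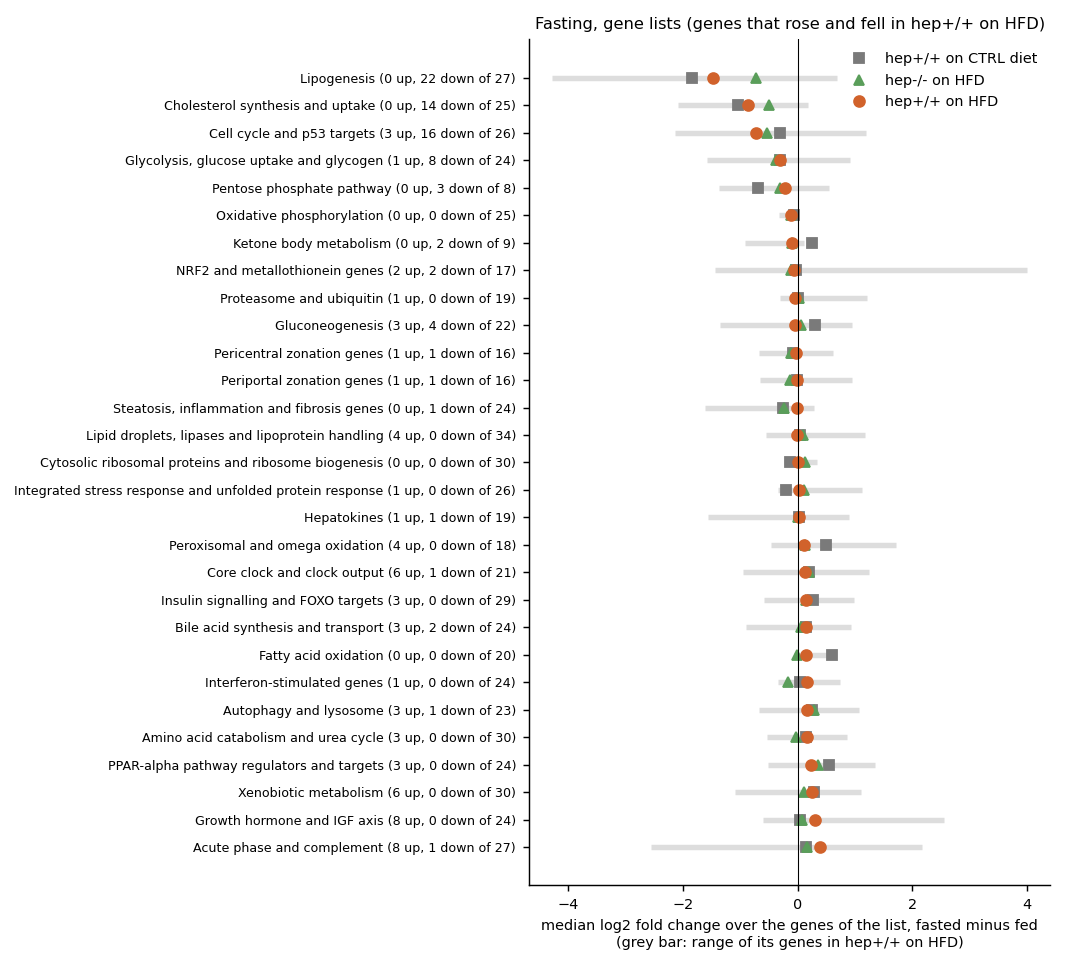
Median log2 fold change of fasted minus fed mice (horizontal axis) over the genes of each list (vertical axis), in p110α hep+/+ mice on HFD (circles), p110α hep+/+ mice on CTRL diet (squares) and p110α hep-/- mice on HFD (triangles), with the range of the genes on HFD as a grey bar. Lipogenesis stands lowest in p110α hep+/+ mice on HFD (-1.47), and the squares of fatty acid oxidation (0.60) and PPARα targets (0.55) lie right of the circles (0.15 and 0.24).

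The next comparison asked where fasting on HFD differed from fasting on CTRL diet in the same genotype. On CTRL diet 599 genes rose (2.92%) and 517 fell (2.52%). Of the 460 that rose on HFD 277 also rose on CTRL diet, which is 60.2% of the first list and 46.2% of the second. Of the 506 that fell 263 also fell on CTRL diet, 52% of the first and 50.9% of the second. The difference itself was tested as the diet by fasting interaction, fasting on HFD minus fasting on CTRL diet. It was higher for 61 genes (0.298%) and lower for 122 (0.596%). With 3 mice per group, 13 genes were called within the first washing batch and 17 within the second. Of the 122 lower genes, 50 rose on CTRL diet and were not called on HFD, 31 fell on HFD only, 10 rose on both and 6 fell on both. Of the 61 higher genes, 22 fell on CTRL diet only and 21 rose on HFD only.

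Genes of the fasting response that rose on CTRL diet and not on HFD include the following. Igfbp1 had signals of 9.46, 11.21 and 13.93 in fed and of 14.30, 14.62 and 14.86 in fasted mice on CTRL diet. The fed mice on HFD given above (12.61 to 15.07) overlapped the fasted mice of either diet and the upper end of the fed mice on CTRL diet. Its interaction was -3.17 ± 0.62 (adjusted p = 0.00259). Fgf21 lay at 7.48, 7.83 and 8.51 in fed and at 9.0, 9.81 and 10.52 in fasted mice on CTRL diet, and the fed mice on HFD (8.43 to 9.87) overlapped both. Its interaction was -2.36 ± 0.32 (adjusted p = 1.94e-05). Krt23, a keratin, and Lamb3, a laminin chain, had interactions of -2.45 ± 0.38 (adjusted p = 0.000138) and of -2.40 ± 0.39 (adjusted p = 0.000268), from rises of 2.11 and 1.91 on CTRL diet against differences of -0.34 and -0.50 on HFD that did not pass.

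Genes of fat oxidation that differed did so in the same direction. On CTRL diet 12 of 20 genes of fatty acid oxidation, 7 of 18 of peroxisomal and omega oxidation and 11 of 24 PPARα genes rose, against 0, 4 and 3 on HFD. The interaction was lower for 1, 6 and 8 of these genes and higher for 0. Cyp4a10 rose by 2.78 on CTRL diet and by 1.52 on HFD, an interaction of -1.25 (adjusted p = 0.0312), which held under 26 of 39 alternatives. Cyp4a14 rose by 3.70 against 1.72 (interaction -1.98 ± 0.56, adjusted p = 0.0494), a call under 10 of 39 alternatives. Angptl4 rose by 1.70 against 0.66 (interaction -1.04 ± 0.22, adjusted p = 0.00529), and its fed mice on CTRL diet (13.81, 14.45 and 15.31) lay mostly under its fed mice on HFD. Ehhadh (-1.03, adjusted p = 0.0136), Plin2 (-1.0 ± 0.25, adjusted p = 0.0206) and Txnip, an inhibitor of glucose uptake (-0.96, adjusted p = 0.0213), had interactions of the same sign. They were called under 34, 32 and 31 of 39 alternatives.

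Of 22 gluconeogenesis genes, Pck1 and G6pc had a called interaction with diet. Pck1 had signals of 13.94, 14.89 and 16.49 in fed and of 16.70, 17.08 and 17.32 in fasted mice on CTRL diet, a rise of 2.18 against 0.95 on HFD (interaction -1.23 ± 0.28, adjusted p = 0.0125). G6pc lay at 14.39, 14.61 and 15.19 in fed and at 14.12, 14.79 and 15.40 in fasted mice on CTRL diet, a difference of 0.08 against the fall of 1.35 on the log2 scale on HFD (interaction -1.43 ± 0.29, adjusted p = 0.00359). In both genes the median of fed mice was higher on HFD than on CTRL diet, and the median of fasted mice was lower. The ranges overlapped between diets in fed and in fasted mice.

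Genes of fatty acid and cholesterol synthesis fell on both diets. Lipogenesis had 23 of 27 genes that fell on CTRL diet, with a median of -1.84, against 22 and -1.47. The interaction was higher for 3 and lower for 3 of these genes. Acly fell more on HFD (-3.60 against -2.76, interaction -0.84 ± 0.22, adjusted p = 0.0274, called under 30 of 39 alternatives), while Srebf1 fell less (-1.71 against -2.83, interaction 1.12 ± 0.28, adjusted p = 0.0241, called under 32 of 39 alternatives). The interaction of Fasn did not pass (0.33 ± 0.26, adjusted p = 0.582). Sqle fell by 3.49 on CTRL diet, to 6.17, 6.88 and 7.83 in fasted mice, and its interaction was 2.25 ± 0.57 (adjusted p = 0.0248; 31 of 39 alternatives). Fdps fell by 3.32, to 10.71, 11.27 and 11.65, and its interaction was 1.74 ± 0.31 (adjusted p = 0.0011). In both genes the ranges of fed mice overlapped between diets, and the median of fasted mice was higher on HFD.

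The growth hormone and IGF list, with 8 genes that rose on HFD, had 2 on CTRL diet, and its interaction was higher for 1 gene and lower for 0. The cell cycle list had 10 genes that fell on CTRL diet against 16, with 1 gene called for the interaction.

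The remaining genes with the largest interactions have other roles. Serpina4-ps1, a pseudogene, had signals of 5.47, 6.22 and 7.70 in fed and of 6.36, 9.47 and 10.01 in fasted mice on HFD, and of 7.85, 10.03 and 12.11 in fed mice on CTRL diet, with an interaction of 3.43 ± 0.80 (adjusted p = 0.0142). Onecut1 had one of 2.55 ± 0.68 (adjusted p = 0.0331; 23 of 39 alternatives) and Scara5 of 1.94 ± 0.40 (adjusted p = 0.00501). Cyp2c70, which makes the muricholic acids of mouse bile, fell by 1.30 on CTRL diet and had a difference of 0.69 on HFD that did not pass (interaction 1.99 ± 0.40, adjusted p = 0.00326). Fabp5, a fatty acid binding protein, fell by 2.45 on CTRL diet and was at -0.49 on HFD (interaction 1.97 ± 0.39, adjusted p = 0.00309). The fall of D9Wsu90e was seen on HFD (-2.40) and not on CTRL diet (-0.36, interaction -2.03 ± 0.30, adjusted p = 7.05e-05).

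**Figure D4:**
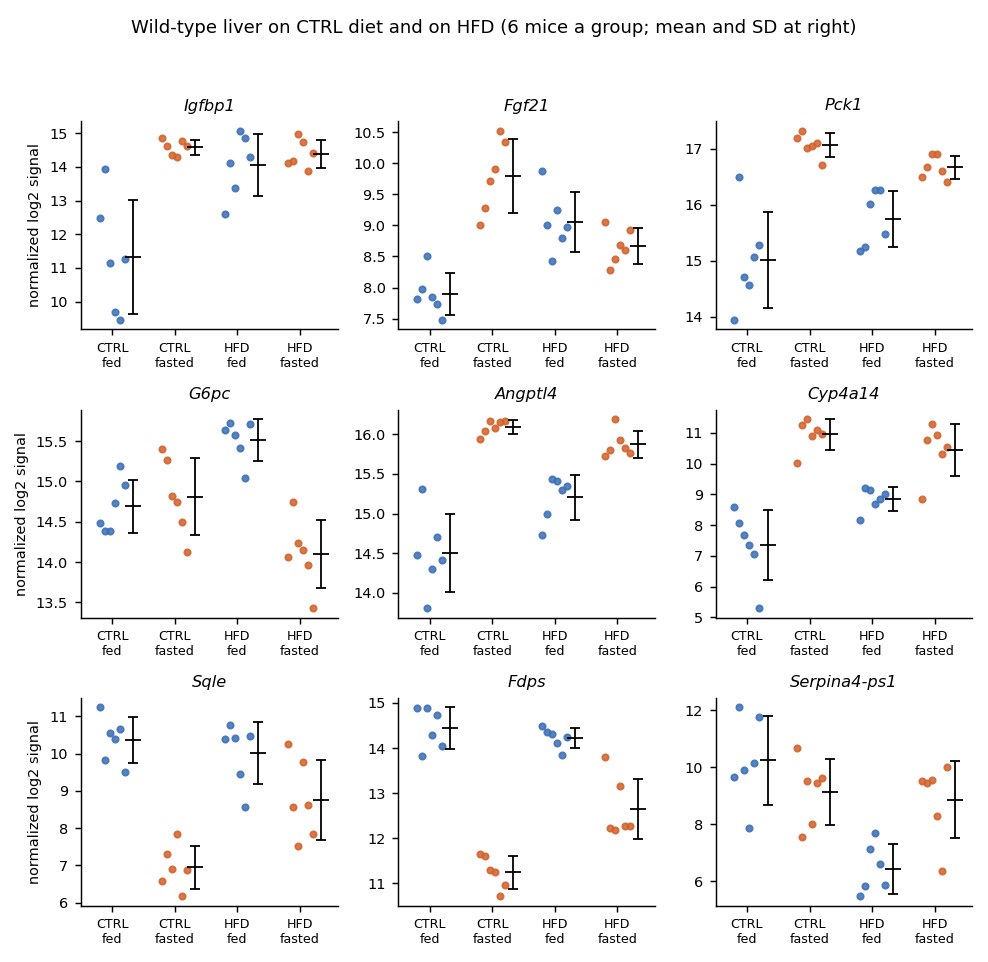
Normalized log2 signal (vertical axis) of 9 genes in p110α hep+/+ mice on CTRL diet and on HFD, fed and fasted, 1 point per mouse (6 per group), with mean and SD at the right of each group. For Igfbp1 and Fgf21 the fed mice on HFD lie above most fed mice on CTRL diet and the fasted mice on HFD overlap them, while Sqle and Fdps fall less on HFD than on CTRL diet.

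The last comparison asked whether hepatocyte p110α bears on the response on HFD. In p110α hep-/- mice on HFD 564 genes rose (2.75%) and 643 fell (3.14%). Of the genes that rose in p110α hep+/+ mice 268 also rose there, which is 58.3% of the first list and 47.5% of the second, and of the genes that fell 258 also fell, 51% and 40.1%. The genotype by fasting interaction, p110α hep-/- minus p110α hep+/+, was higher for 149 genes (0.727%) and lower for 134 (0.654%). The sum of 283 became 182 without replicate 2 of the fed p110α hep-/- mice, 42 within the first washing batch and 86 within the second. Of the 149 higher genes, 52 rose in p110α hep-/- mice only, 44 fell in p110α hep+/+ mice only and 13 fell in both genotypes. Of the 134 lower genes, 56 fell in p110α hep-/- mice only and 20 rose in p110α hep+/+ mice only. Of the genes called on HFD in p110α hep+/+ mice, 122 that rose and 161 that fell were not called in either direction in the other 2 fasting comparisons. Missing the thresholds there does not show that the response differed, which was tested only by the interactions.

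The genotypes differed in 9 lipogenic genes. In p110α hep-/- mice 15 of 27 lipogenic genes fell and 1 rose, with a median of -0.72, and the interaction was higher for 9 genes and lower for 0. Fasn had signals of 14.25, 14.87 and 15.42 in fed and of 12.12, 12.68 and 13.07 in fasted p110α hep-/- mice. The fed mice were below all fed p110α hep+/+ mice (17.05 to 17.94), and the difference on fasting was -2.30 against -4.14 (interaction 1.84 ± 0.28, adjusted p = 6.32e-05). The difference of Acly was -1.67 against -3.60 (interaction 1.93 ± 0.23, adjusted p = 8.65e-07), that of Acaca -1.24 against -2.53 (1.29 ± 0.19, adjusted p = 1.97e-05), that of Elovl6 -2.56 against -3.89 (1.34 ± 0.27, adjusted p = 0.00261) and that of Gpam -0.28 against -1.51 (1.23 ± 0.22, adjusted p = 0.000561). In each of these genes the ranges of fasted mice overlapped between genotypes. Srebf1 had differences of -1.66 and -1.71, with an interaction of 0.06 ± 0.30 (adjusted p = 0.957).

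Slc2a4 and the patatin lipases were low in fed p110α hep-/- mice. Slc2a4 had signals of 6.66, 7.51 and 7.6 in fed and of 6.23, 7.02 and 7.78 in fasted p110α hep-/- mice, an interaction of 2.89 ± 0.30 (adjusted p = 4.15e-08) that held under all 39 alternatives. Pnpla3 was well above background on 4 of 6 fed and on 0 of 6 fasted p110α hep-/- arrays, and Pnpla5 on 4 and 0. The interaction was called higher for Pnpla3 (adjusted p = 4.61e-06) and Pnpla5 (adjusted p = 7.8e-06). Fasted mice of both genotypes were near background, so its size cannot be given. Over the alternatives it ran from 2.5 to 5.31 for Pnpla3 and from 2.61 to 4 for Pnpla5.

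Further genes with an interaction have varied roles. Rgs16, an inhibitor of G protein signalling, had signals of 12.82, 14.39 and 14.91 in fed and of 11.86, 13.16 and 14.18 in fasted p110α hep+/+ mice, and of 9.29, 12.19 and 13.29 and then 13.29, 14.50 and 15.27 in p110α hep-/- mice (interaction 3.48 ± 0.63, adjusted p = 0.000587). Ppp1r3g, a glycogen-targeting subunit of protein phosphatase 1, rose by 1.89 in p110α hep-/- mice against -0.56, which did not pass (interaction 2.45 ± 0.45, adjusted p = 0.000726). Fgf21 rose by 1.13 in p110α hep-/- mice (interaction 1.57 ± 0.34, adjusted p = 0.00489). Car3, carbonic anhydrase 3, fell by 1.84 in p110α hep-/- mice and was at -0.19 in p110α hep+/+ mice (interaction -1.65 ± 0.22, adjusted p = 7.71e-06). The transporters Slc22a7 and Slc41a2 had interactions of -1.72 ± 0.45 (adjusted p = 0.0222) and of -1.54 ± 0.32 (adjusted p = 0.00284). For Mt1 and Mt2 no interaction passed with either genotype or diet, and the rises in p110α hep-/- mice were 2.80 and 4.53.

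**Figure D5:**
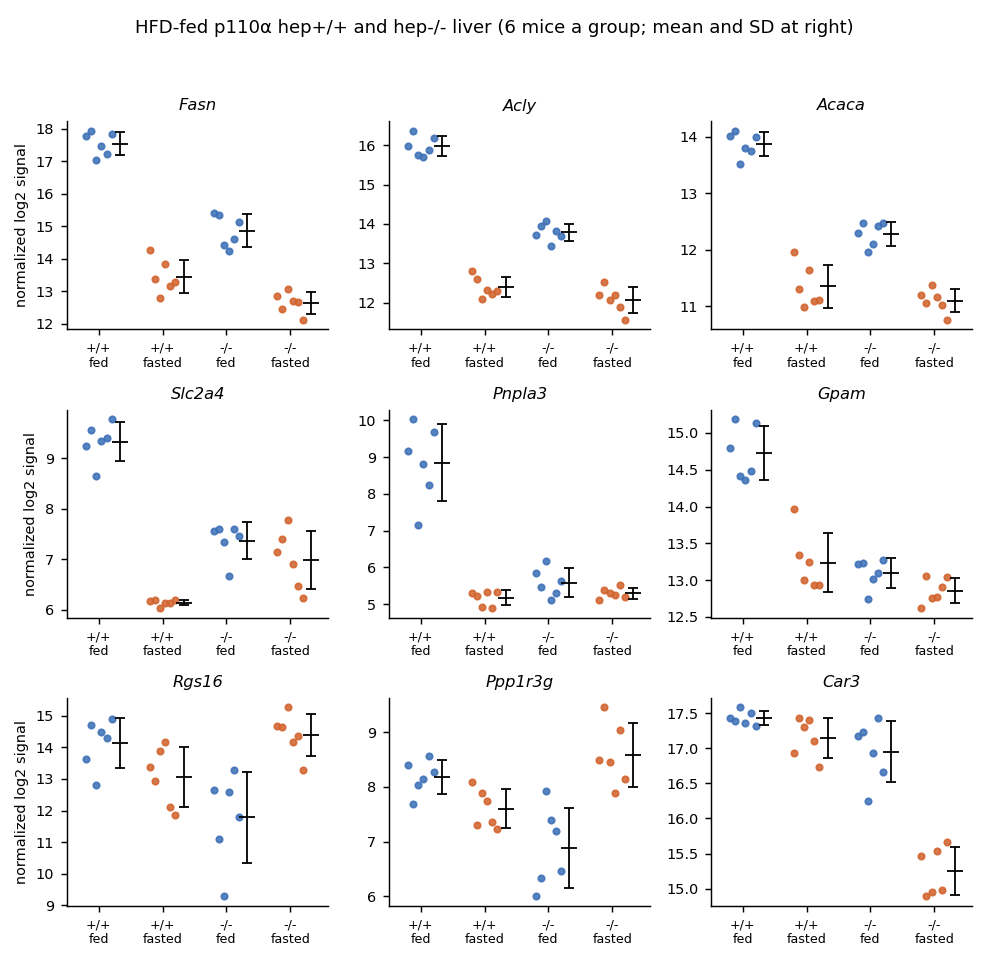
Normalized log2 signal (vertical axis) of 9 genes in p110α hep+/+ (+/+) and p110α hep-/- (-/-) mice on HFD, fed and fasted, 1 point per mouse (6 per group), with mean and SD at the right of each group. For Fasn, Acly, Acaca and Gpam the fed -/- mice lie below the fed +/+ mice while the fasted groups overlap, and Rgs16 and Ppp1r3g rise in -/- mice only.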

How the data were processed

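Liver RNA (200 ng, cyanine 3) was hybridized to one-colour Agilent arrays. The deposited scanner files hold the intensity of each spot and its background, made by the authors with Agilent Feature Extraction 10.10.1.1 and not normalized. A deposited table of log2 values, made by the authors by filtering, washing batch correction and quantile normalization, served as an alternative. Gene symbols, with mm9 coordinates, were read there.

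The log2 median signal of spots that are not controls was used, with outlier spots (92 to 151 per array) missing. Probes well above background on at least 5 of 6 arrays of at least 1 group were kept (30793 of 56605). The washing batch was removed with limma 3.58.1, arrays were quantile normalized, and all 48 were fitted with 8 group means and arrayWeights (R 4.3.3). Groups came from sample titles. Benjamini-Hochberg adjustment ran over every kept probe. Each gene was represented by its brightest probe. Calls needed adjusted p of 0.05 or less together with more than 1.5-fold change. Median spot signals were 55 to 66 and median local backgrounds 23 to 40 on the 12 arrays, so dim genes are measured less surely. Precision is limited by the number of arrays.

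The genes named are the 12 that rose and 12 that fell most without overlap, up to 5 with a bound only in each direction, the 6 and 3 largest interactions in each direction with diet and genotype, a list of index genes, and up to 4 called members of each list. Some genes that this rule names are not reported here. These members and lists were chosen with earlier results of these data known. The fit was tested on simulated data. Of 20486 genes, 14103 matched RefSeq by accession. Alternatives changed the background correction, scaling, filter, batch, block, weights, probes and thresholds, and left out each array.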

Additional observations from a re-analysis of the deposited data

Results flagged for a closer look

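Of 376 sets of 6 values (named genes, summed markers and array quality in fed and fasted p110α hep+/+ mice on HFD), 22 had 1 value far from the other 5 (Dixon's test), where chance gives about 1 in 20 sets. Replicate 1 of the fasted mice was low for Hamp2 (6.51, others 10.79 to 13.12), Acot1 (14.09, others 14.54 to 14.71), Cyp4a10 (14.35, others 14.94 to 15.19), Cyp4a31 (15.59, others 16.16 to 16.44) and Insig2 (14.33, others 14.76 to 14.97). It was high for Fabp5 (11.19, others 10.03 to 10.38) and Tbc1d31 (9.27, others 8.60 to 8.83). Among the other fasted mice, Pdk4 was high in replicate 2 (10.03), Slc2a4 low in replicate 3 (6.03), Fbp1 low in replicate 6 (16.92), and the summed Kupffer cell and macrophage markers high in replicate 5 (88700, others 30000 to 40000).

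In fed mice, replicate 1 was low for Clec2h (5.06, others 6.59 to 7.06), Igfbp2 (11.42, others 12.36 to 12.62) and Per1 (10.64, others 11.64 to 12.22), and high for Fst (7.70, others 6.39 to 6.76). Replicate 3 was low for Fam134b (9.98), Lcn2 (11.85, others 12.57 to 12.93) and Per2 (11.15). Replicate 4 was high for Ciart (7.47, others 6.27 to 6.47) and Sds (13.17, others 12.45 to 12.69), replicate 5 for Lipe (8.19, others 7.39 to 7.65) and replicate 6 for Slc41a2 (10.80, others 10.51 to 10.61).

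The effect of fasting differed between diets by the interaction test for these named genes. It was lower on HFD for Igfbp1 (-3.17), Krt23 (-2.45), Lamb3 (-2.40), Fgf21 (-2.36), D9Wsu90e (-2.03), Cyp4a14 (-1.98), G6pc (-1.43), Tubb2a (-1.27), Cyp4a10 (-1.25), Cyp8b1 (-1.24), Pck1 (-1.23), Tubb2a-ps2 (-1.16), Angptl4 (-1.04), Ehhadh (-1.03), Plin2 (-1.0), Txnip (-0.96), Acly and A4gnt (both -0.84), Trib3 (-0.82), Slc22a5 (-0.76), Ttc25 (-0.69), Slc16a1 (-0.66), Ulk1 (-0.64), and Bdh1 and Nfe2l2 (both -0.60). It was higher on HFD for Serpina4-ps1 (3.43), Onecut1 (2.55), Sqle (2.25), Cyp2c70 (1.99), Fabp5 (1.97), Scara5 (1.94), Fdps (1.74), Srebf1 (1.12) and Saa4 (0.88). Some of these calls held under fewer of the 39 alternatives than the others: Cyp4a14 10, Trib3 11, Saa4 13, Cyp8b1 15, Slc16a1 21, Nfe2l2 and Onecut1 23 each, Bdh1 24 and Cyp4a10 26. The interaction was also called lower for A4gnt and Ttc25 and higher for Ces4a. Values of these genes include groups not above background, so the size of their interaction cannot be given.

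Between genotypes on HFD the interaction was higher in p110α hep-/- mice for Pnpla3 (3.58), Pnpla5 (3.49), Rgs16 (3.48), Slc2a4 (2.89), Ppp1r3g (2.45), Acly (1.93), Fasn (1.84), Dusp1 (1.78), Fgf21 (1.57), Tbc1d31 (1.52), D9Wsu90e (1.44), Elovl6 (1.34), Tubb2a-ps2 (1.30), Acaca (1.29), Tubb2a (1.28), Gpam (1.23), Krt20 (1.12), Ttc25 (1.11), Hormad2 (1.09), A4gnt (1.06), Chrna4 (1.00), Rpia (0.96), Ulk1 (0.77), Nfe2l2 (0.70) and Pdhb (0.62). It was lower for Slc22a7 (-1.72), Car3 (-1.65) and Slc41a2 (-1.54). The interaction was also called higher for Pnpla3, Pnpla5, Krt20, Ttc25, Hormad2, A4gnt and Chrna4, and lower for Ces4a. Values of Pnpla3, Pnpla5, Krt20, Ttc25, Hormad2, A4gnt, Chrna4 and Ces4a include groups not above background, so the size of their interaction cannot be given. The call of Chrna4 held under 18 of 38 alternatives. The called sign of these interactions did not turn under any alternative that measured them.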

How the results depend on the processing

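Of 177 named genes, 121 were called for fasting on HFD and 62 of these under every alternative that measured them. Of the 56 not called, 47 were called under none. No direction turned among the called genes and called interactions, except that Pip5k1a was at 0 with the median over probes. The count of genes that rose (460) became 729 with the processed signal, 2824 with the adjusted p alone and 95 with a fold change over 2. The count that fell (506) became 3012 with the adjusted p alone and 157 with a fold change over 2. The diet by fasting interaction (183) became 111 with no filter on dim probes, 13 and 17 within washing batches 1 and 2, 117 with no array weights, 485 with the adjusted p alone and 60 with a fold change over 2. The genotype by fasting interaction (283) became 186, 42 and 86, 168, 703 and 66 in the same order. Within a batch each group has 3 arrays. Aside from the calls named so in the report, and those given there with the number of alternatives that kept them, Cd4, Ciart, Cyp3a13, Cyp4a14, Gadd45b, Irs2, Krt20, Nkd1, Sult1e1, Slc7a2 and Usp18 were not called within batch 1, and Alas1, Aldh1b1, Cela2a, Ces4a, Chrna4, Gabarapl1, Hamp2, Nr1d1, Prok1, Serpina4-ps1, Slc16a6, Smad9 and Trib3 not within batch 2. The processed signal also ended the calls of Fbp1 and Hamp2, normexp those of Cela2a and Nr1d1, no array weights those of Ccnd1 and Slc7a2, and the median over probes those of Cd4, Nfe2l2 and Tkt. The cause of the other changes was not tested. Leaving out 1 array at a time gave 415 to 500 genes that rose, 447 to 580 that fell, 140 to 214 for the diet interaction and 182 (without fed p110α hep-/- replicate 2) to 336 (without fed p110α hep+/+ replicate 3) for the genotype interaction.

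Mice of different groups share replicate numbers, and no sample title says that a number pairs them. Deviations of same-numbered fed and fasted mice on HFD correlated at -0.19 to 0.20, which does not settle whether the numbers pair the samples. For fed replicates 1 and 3 the same-numbered fasted mouse matched best (0.16 and 0.20). The arrays of replicate 1 shared slide 3 and those of replicate 3 shared slide 6. With the replicate number as a block, 438 genes rose, 494 fell, and 149 and 273 were called for the diet and genotype interactions. Signals near background limit what can be said of dim genes, such as Pnpla3, Pnpla5, Hsd3b5, Clec2h, Slc51b and those given as bounds.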
